A study of Mus musculus with 24 samples.

Results

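Hemoglobin genes and Alas2, the erythroid gene that starts heme synthesis, were followed in 24 RNA sequencing libraries of the mouse kidney inner medulla. The 5 genes were Hba-a1 and Hba-a2 (alpha chains), Hbb-bs and Hbb-bt (beta chains) and Alas2, out of 55416 gene identifiers in the count table, and all 5 were among the 18005 genes tested. They were chosen by their cisplatin against saline log2 fold changes in these same libraries, so those values are given as a description, with no test. The study compared the inner medulla, the innermost zone of the kidney, between saline and cisplatin, a platinum drug that injures kidney tubules, in both sexes. All mice were C57BL/6 and 9 to 10 weeks old, and they received 1 intraperitoneal injection of 100 µl, either saline or 15 mg/kg cisplatin in saline, with tissue taken 72 h later. Males gave 6 libraries of poly(A) RNA after saline and 6 after cisplatin, and females gave 7 and 5. The labels do not say that each library is a separate mouse, so p-values measure the spread between libraries. No label says whether blood was flushed from the kidneys.

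Adult hemoglobin is a tetramer of alpha and beta chains, each of which carries a heme. The chains are made in erythroid cells of the bone marrow and spleen, and young circulating red cells, called reticulocytes, still hold hemoglobin RNA after they have lost their nucleus. ALAS2 is the erythroid form of the enzyme that joins glycine and succinyl-CoA in the first step of heme synthesis, while ALAS1 is the form of other tissues. C57BL/6 mice carry the single Hbb haplotype, whose adult beta genes are Hbb-bs and Hbb-bt.

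Libraries held 18084242.0 to 27279102.0 counts. The label of the tissue was checked against 10 markers of collecting duct and thin limb, all of which were tested, and their summed level was 8469 to 15436 CPM (counts over the library size, with sizes scaled by edgeR's TMM method) over the libraries. The lists of proximal tubule and thick ascending limb, parts of the nephron that lie mostly outside the inner medulla, had summed levels of 39.2 to 437 CPM, leaving out Aqp1, which thin limbs also express, and of 1179 to 14118 CPM. In male saline the thick ascending limb median was 9518 CPM, against 11658 CPM for the collecting duct and thin limb list. It was 4833 CPM in male cisplatin, and 7563 and 5867 CPM in saline and cisplatin females. RNA of the thick ascending limb was thus plentiful and uneven over the libraries. Lcn2, which encodes the injury marker lipocalin 2, served as a measure of injury strength. It rose in males (log2 fold change 5.50 ± 0.77 SE, adjusted p = 0.000117, edgeR's quasi-likelihood test) and in females (4.04 ± 0.68, adjusted p = 0.00438).

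The members sit in 3 places of the genome, and the sequences ahead of 4 of them are shown because all 5 genes were low in the same libraries. Hba-a1 (ENSMUSG00000069919, chr11:32283511-32284465) and Hba-a2 (ENSMUSG00000069917, chr11:32296489-32297298) lie on the plus strand, Hbb-bs (ENSMUSG00000052305, chr7:103826534-103828096) and Hbb-bt (ENSMUSG00000073940, chr7:103812524-103813996) on the minus strand, and Alas2 (ENSMUSG00000025270, chrX:150547375-150570638) on the plus strand (GENCODE, GRCm38). The windows below hold the 250 bases before the RefSeq start (GRCm38.p6), written 5′ to 3′ on the gene's strand, with capitals for 4 short motifs on either strand, which the next paragraph spells out. They come from chr11:32283422-32283671 for Hba-a1, chr7:103827929-103828178 for Hbb-bs, chr7:103813924-103814173 for Hbb-bt and chrX:150547167-150547416 for Alas2. The GENCODE models of all 5 genes begin inside these windows, so the annotations place the start differently.
Hba-a1: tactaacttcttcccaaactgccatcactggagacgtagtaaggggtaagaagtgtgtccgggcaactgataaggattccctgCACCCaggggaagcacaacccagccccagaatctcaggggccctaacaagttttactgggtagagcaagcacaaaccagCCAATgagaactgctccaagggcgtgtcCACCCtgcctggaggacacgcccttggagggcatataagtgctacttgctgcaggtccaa
Hbb-bs: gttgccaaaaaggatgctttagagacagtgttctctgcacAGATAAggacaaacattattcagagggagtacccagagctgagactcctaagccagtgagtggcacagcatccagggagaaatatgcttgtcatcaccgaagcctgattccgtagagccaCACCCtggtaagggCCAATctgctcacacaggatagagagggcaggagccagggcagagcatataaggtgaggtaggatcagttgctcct
Hbb-bt: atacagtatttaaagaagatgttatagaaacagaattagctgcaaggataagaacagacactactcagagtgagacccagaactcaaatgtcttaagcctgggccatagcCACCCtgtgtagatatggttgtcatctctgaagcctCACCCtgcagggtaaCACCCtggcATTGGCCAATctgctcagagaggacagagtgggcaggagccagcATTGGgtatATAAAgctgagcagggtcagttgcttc
Alas2: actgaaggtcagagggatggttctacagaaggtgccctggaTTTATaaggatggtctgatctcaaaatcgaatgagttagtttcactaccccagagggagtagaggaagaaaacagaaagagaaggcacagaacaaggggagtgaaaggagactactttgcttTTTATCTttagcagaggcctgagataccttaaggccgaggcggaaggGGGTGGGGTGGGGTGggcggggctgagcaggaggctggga

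CACCC, the core letters bound by KLF factors such as the erythroid KLF1, was found in 5 of 5 windows, against 52% of 32851 promoter windows of this length, with both strands searched for this and the other motifs. CCAAT was found in the 4 hemoglobin windows and not in that of Alas2 (33.8% of all windows). AGATAA, one form of the GATA factor motif, was in the windows of Hbb-bs and Alas2 (9.99% of all windows). Other forms were not searched, so the window of Hba-a1 holds a TGATAA that stays in lower case. A window without AGATAA is thus not shown to lack a GATA motif. ATAAA was in those of Hbb-bt and Alas2 (37.3% of all windows), where 1 of its matches in Alas2 overlaps AGATAA on the reverse strand, read as the run TTTATCT. These matches describe letters only. The alpha copies could not be told apart here, since their windows were identical over 297 aligned bases with an offset of 3. The beta copies matched at 56.2% of 299 aligned bases in this window. Within the coding sequence the copies of each pair were nearly alike, with 1 difference in 429 bases for Hba-a1 and Hba-a2 and 1 in 444 for Hbb-bs and Hbb-bt. How counting divided reads between such copies is uncertain, so sums over each pair are given beside the single genes. Such sums would still lack any reads that matched both copies and were left out.

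Hba-a1, the alpha gene given the most counts, ranged from 54.9 to 134 CPM in male saline libraries (median 76.6) and from 34.3 to 132 CPM in female saline libraries (median 71.3). After cisplatin it ranged from 1.57 to 6.04 CPM in males (median 2.09), and the female libraries held 3.28, 4.13, 4.49, 2.53 and 2.22 CPM. Every saline library was above every cisplatin library, and the lowest saline library was 5.68 times the highest cisplatin library. Means were 82.8 ± 27.8 CPM (SD, n = 6) and 2.67 ± 1.68 (n = 6) in saline and cisplatin males, and 75.6 ± 34.8 (n = 7) and 3.33 ± 0.982 (n = 5) in females. In bulk tissue, fewer cells of a type and less RNA per cell cannot be told apart.

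Hba-a2, the neighbouring alpha copy, was given fewer counts throughout. Its levels were 8.73 to 22.4 CPM in male saline (median 12.7) and 7.19 to 24.8 CPM in female saline (median 11.5). They were 0.182 to 1.71 CPM in male cisplatin (median 0.59) and 0.647, 1.11, 1.06, 0.438 and 0.376 CPM in the female cisplatin libraries. The saline and cisplatin libraries did not overlap, with a gap of 4.21 times. Means were 13.8 ± 4.7 CPM (SD, n = 6) and 0.697 ± 0.525 (n = 6) in saline and cisplatin males, and 13.3 ± 6.12 (n = 7) and 0.725 ± 0.342 (n = 5) in females.

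Hbb-bs, the beta gene given the most counts, had the highest mean level of the 5 genes in each group. It ranged from 72.6 to 188 CPM in male saline (median 105) and from 47.6 to 186 CPM in female saline (median 113). Male cisplatin libraries lay between 2.05 and 5.93 CPM (median 2.74), and those of females held 3.67, 5.64, 6.86, 2.63 and 2.47 CPM. The gap between the treatments was 6.94 times, the widest of the 5 genes. Means were 114 ± 39.5 CPM (SD, n = 6) and 3.1 ± 1.45 (n = 6) in saline and cisplatin males, and 108 ± 48.1 (n = 7) and 4.25 ± 1.93 (n = 5) in females.

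Hbb-bt, the beta copy given fewer counts, had 9.48 to 27.7 CPM in male saline (median 13.6) and 6.27 to 37.2 CPM in female saline (median 15). After cisplatin it had 0.166 to 1.07 CPM in males (median 0.286), and 0.561, 0.577, 0.739, 0.73 and 0.544 CPM in the female libraries. These levels rest on 13 to 15 counts in the female and 3 to 20 in the male cisplatin libraries. Counting error is large there, so nothing is read from how close the female libraries were. No cisplatin library reached the lowest saline library, which was 5.87 times the highest cisplatin library. Means were 15.8 ± 6.45 CPM (SD, n = 6) and 0.394 ± 0.34 (n = 6) in saline and cisplatin males, and 17.1 ± 10 (n = 7) and 0.63 ± 0.0959 (n = 5) in females.

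Alas2 had 3.59 to 8.97 CPM in male saline (median 5.24) and 2.12 to 10.2 CPM in female saline (median 4.63). The male cisplatin libraries held 0.0477, 0.607, 0.553, 0.388, 0.534 and 0.0365 CPM, and the female ones 0.647, 0.4, 0.792, 0.34 and 0.293 CPM. Male cisplatin 1 and 6 stood below the rest with 1 count each, a count whose exact Poisson 95% interval is 0.0253 to 5.57 counts and covers counting error only. The other cisplatin libraries had 7 to 15 counts. The gap between the treatments was 2.67 times, the narrowest of the 5 genes. Means were 5.4 ± 1.95 CPM (SD, n = 6) and 0.361 ± 0.258 (n = 6) in saline and cisplatin males, and 5.15 ± 2.77 (n = 7) and 0.494 ± 0.215 (n = 5) in females.

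**Figure D1:**
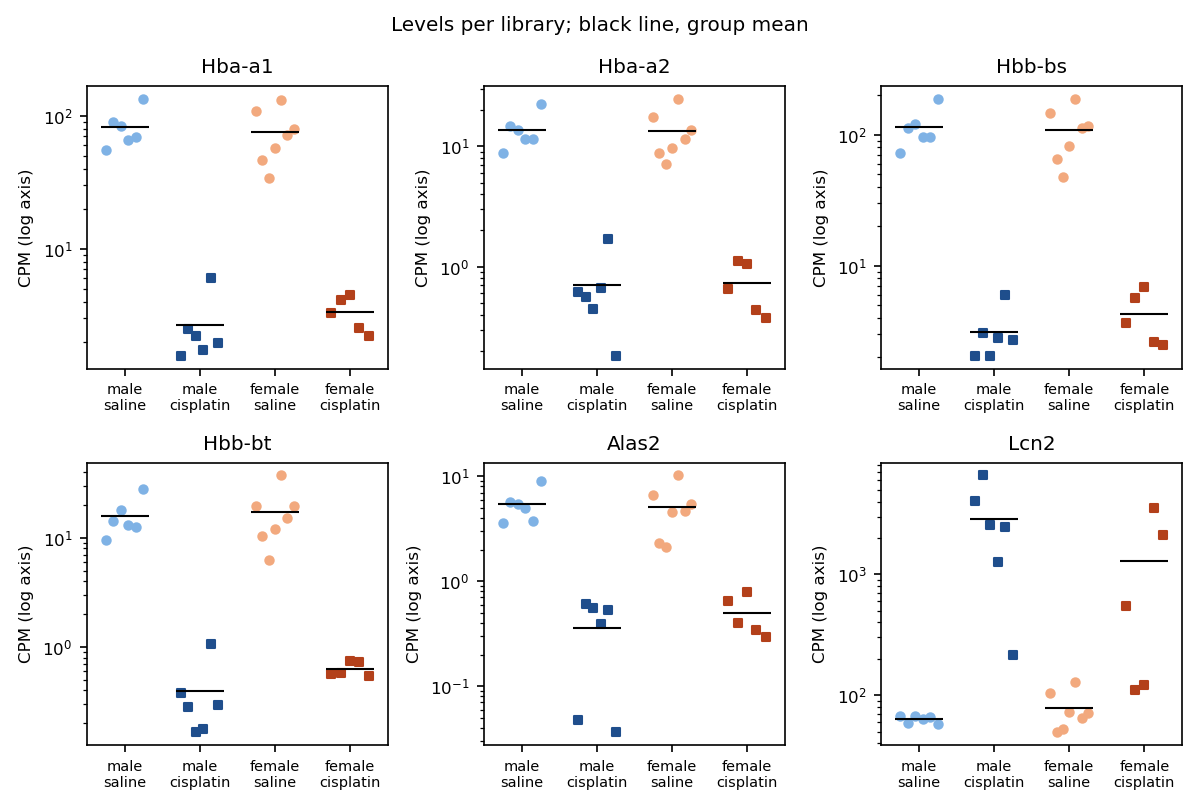
Level of each hemoglobin gene, Alas2 and Lcn2 in every library (y axis, CPM on a log axis; circles, saline; squares, cisplatin; blue, male; orange, female; black line, group mean). In the 5 erythroid panels every saline library lies above every cisplatin library, with lowest saline and highest cisplatin levels of 34.3 and 6.04 CPM for Hba-a1 and 2.12 and 0.792 CPM for Alas2, whereas Lcn2 of female cisplatin 2 and 3 lies at saline levels.

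Per kilobase of exon, the order of the mean levels in male saline was Hbb-bs (149 ± 51.4 CPM per kb, SD, n = 6), Hba-a1 (102 ± 34.2), Hbb-bt (22.5 ± 9.17), Hba-a2 (20.7 ± 7.04) and Alas2 (2.25 ± 0.812). This order describes reads as counted. How reads of near-alike copies were divided is unknown, so it is not a measure of the RNA of each copy. Hbb-bs and Hba-a1, and likewise Hbb-bt and Hba-a2, differed by less than the larger SD between libraries. Since these genes varied together over libraries, that SD does not measure how steady their order was. In CPM, Hbb-bs was above Hba-a1 in every saline library, and its exon length is the shorter (768 against 812 bases). Hbb-bt and Hba-a2 changed places between saline libraries. The same order held in female saline, at 141 ± 62.7, 93.2 ± 42.8, 24.3 ± 14.3, 20 ± 9.18 and 2.14 ± 1.15 CPM per kb (n = 7). After cisplatin the mean of Hba-a2 stood above that of Hbb-bt in both sexes, at 1.05 ± 0.787 against 0.56 ± 0.483 CPM per kb in males and 1.09 ± 0.513 against 0.896 ± 0.136 in females. Male cisplatin 6 and female cisplatin 4 and 5 went the other way.

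Summed over the 4 hemoglobin genes, the level was 227 ± 78 CPM (SD, n = 6) in male saline and 214 ± 98.3 (n = 7) in female saline. That made 0.00977% to 0.0384% of the counts of a saline library. After cisplatin the sum was 6.86 ± 3.91 CPM (n = 6) in males, with a lowest library of 4.63, a median of 5.25 and a highest of 14.7. In female cisplatin libraries it was 8.16, 11.5, 13.1, 6.32 and 5.6 CPM (mean 8.94 ± 3.26, n = 5). A cisplatin library kept between 2.04% and 6.5% of the mean hemoglobin level of saline libraries of its sex. For Alas2 this share ran from 0.676% to 15.4%.

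As log2 fold changes of cisplatin over saline in males, Hbb-bt had -5.36 ± 0.44 (SE), Hbb-bs -5.21 ± 0.37, Hba-a1 -4.98 ± 0.37, Hba-a2 -4.33 ± 0.40 and Alas2 -3.92 ± 0.48. The values in females were -4.75 ± 0.45, -4.68 ± 0.38, -4.51 ± 0.38, -4.20 ± 0.43 and -3.37 ± 0.49. These were the 5 most negative log2 fold changes of the 18005 tested genes in each sex, in that order. Counting each sex and edgeR setting as 1 fit, the reported ones included, the members held the 5 lowest places in 48 of 62 fits. The next was Kcnh5, a potassium channel gene, in males (-2.97) and Alb, the albumin gene, in females (-3.21). For scale, 7.54% of tested genes were called lower and 13.2% higher in males, and 0.0722% lower and 0.2% higher in females (adjusted p under 0.05). Nothing is read from these shares for the 5 genes, since this contrast chose them.

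Separation of all 13 saline from all 11 cisplatin libraries in the downward direction was seen for 7 of the tested genes (0.0389%), and 5 of them were the members. Another, named after its values were seen, was Sacm1l, which encodes a phosphoinositide phosphatase, with 72.8 CPM in the lowest saline and 72.1 CPM in the highest cisplatin library. Its gap was smaller than those of the members. Nothing is read from this or from the share for the 5 genes, since this contrast chose them.

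Sex was not part of how the genes were chosen, so it was tested. Under saline, 0 of 5 genes differed between females and males (0.189% of tested genes were called), with log2 differences, female minus male, of -0.13 (95% interval -0.69 to 0.43) for Hba-a1, -0.05 (-0.67 to 0.57) for Hba-a2, -0.08 (-0.63 to 0.48) for Hbb-bs, 0.11 (-0.52 to 0.74) for Hbb-bt and -0.07 (-0.81 to 0.66) for Alas2. The adjusted p was 0.9997 for each (edgeR). The intervals leave room for a difference of somewhat under a doubling in either direction. The summed hemoglobin level also showed no detectable difference (log2 difference -0.15, exact permutation test over 1716 arrangements, 2-sided p = 0.653).

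Under cisplatin, female minus male log2 differences were 0.34 (95% interval -0.39 to 1.06) for Hba-a1, 0.08 (-0.80 to 0.97) for Hba-a2, 0.46 (-0.25 to 1.17) for Hbb-bs, 0.71 (-0.29 to 1.72) for Hbb-bt and 0.48 (-0.58 to 1.53) for Alas2. All 5 values were positive and 0 of 5 passed (adjusted p from 0.642 to 0.961, edgeR), where 0.156% of tested genes were called. Their shared sign does not count as 5 observations, since they come from the same libraries, where the chains varied together. That of Hba-a2 ran from -0.13 to 0.55 leaving out 1 library. The summed hemoglobin genes gave a log2 difference of 0.41 (exact permutation test over 462 arrangements, 2-sided p = 0.236), and Alas2 one of 0.24 (exact p = 0.355).

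The interaction, which asks whether the change with cisplatin differed between the sexes, was 0.47 (95% interval -0.45 to 1.39) for Hba-a1, 0.13 (-0.95 to 1.21) for Hba-a2, 0.53 (-0.37 to 1.44) for Hbb-bs, 0.61 (-0.57 to 1.78) for Hbb-bt and 0.55 (-0.73 to 1.83) for Alas2 on the log2 scale, females minus males. Adjusted p ran from 0.943 to 0.981 (edgeR), and 0 of 5 genes passed, as did 0.0% of all tested genes. At an unadjusted p under 0.05, 772 genes of the whole table and 0 of the 5 had an interaction, and DESeq2 called 0 genes. In the other 2 sex contrasts, too, 0 of the 5 had an unadjusted p under 0.05 and DESeq2 called 0 of the 5.

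Injury strength varied widely among cisplatin libraries. Lcn2 was 4021, 6589, 2578, 1265, 2470 and 213 CPM in male cisplatin 1 to 6, and 546, 111, 122, 3529 and 2097 CPM in female cisplatin 1 to 5. Saline libraries had 49.4 to 129 CPM of Lcn2, so 2 cisplatin libraries, female 2 and 3, lay within the saline range. Their summed hemoglobin levels of 11.5 and 13.1 CPM were the highest among the female cisplatin libraries and still below the lowest saline library of either sex, at 95.4 CPM. Male cisplatin 6, the male library with the least Lcn2, had 5.15 CPM of hemoglobin RNA, close to the male median.

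Across the 11 cisplatin libraries, with the mean of each sex removed, Lcn2 and the summed hemoglobin genes had a Pearson's r of -0.35 (permutation p = 0.287, adjusted 0.402) and a Spearman's rho of -0.54 (permutation p = 0.0951, adjusted 0.246). The p-values were adjusted over the 21 relations computed. Pearson's r without the 2 libraries farthest from the median of Lcn2, female cisplatin 2 and male cisplatin 6, was -0.50. Within the 6 male libraries r was 0.17 (exact permutation p = 0.66, adjusted 0.77) and rho was -0.09 (exact p = 0.919, adjusted 0.924), and the 5 female libraries were too few for a correlation. Without male cisplatin 5, the library with the most hemoglobin RNA, r over the other 10 libraries was -0.65 (permutation p = 0.043, not adjusted), and with that library no relation was called. Alas2 had no detectable relation with Lcn2 (r = 0.07, permutation p = 0.828, adjusted 0.888, and rho = 0.04, p = 0.924, adjusted 0.924). Its r was 0.55 within males (exact permutation p = 0.257, adjusted 0.391), which turned to -0.54 without male cisplatin 2 and 6, and it was -0.50 over both sexes without the same 2 libraries as for hemoglobin.

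**Figure D2:**
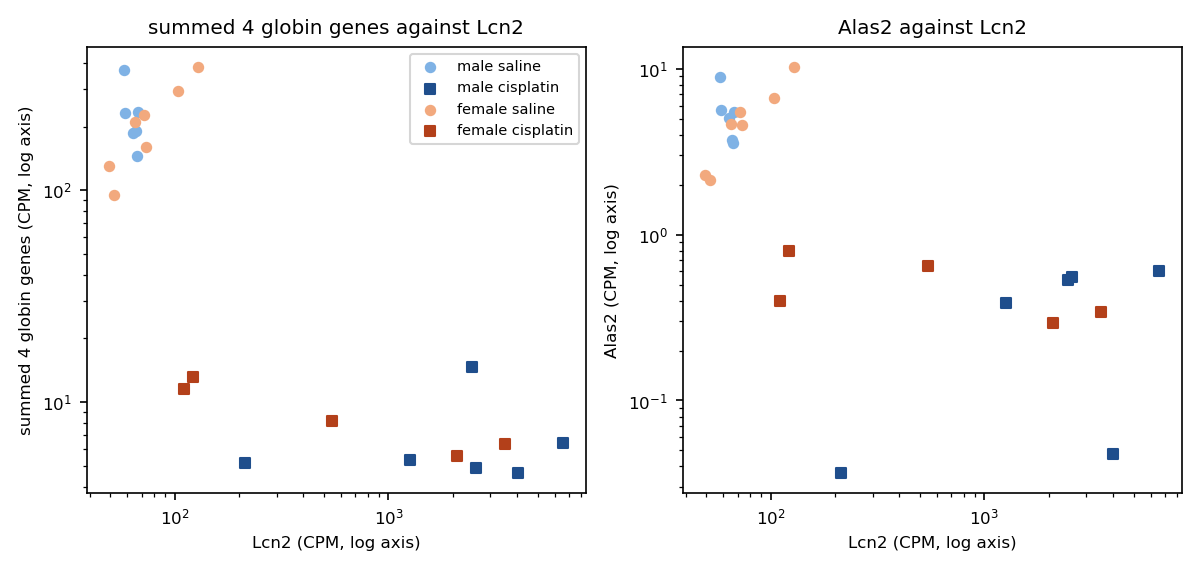
Summed level of the 4 hemoglobin genes (left) and level of Alas2 (right) against Lcn2, 1 point per library, all in CPM on log axes. The cisplatin libraries spread over 111 to 6589 CPM of Lcn2 while their hemoglobin sum stays between 4.63 and 14.7 CPM.

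Among saline libraries the members varied together. With the mean of each sex removed, the summed beta and summed alpha genes had r = 0.99 and rho = 0.97 over 13 libraries (permutation p = 1e-05 for both, the smallest these permutations can give, adjusted 7e-05), and r was 0.98 without female saline 3 and 5. Alas2, on another chromosome, followed the alpha genes (r = 0.96, rho = 0.98, and r = 0.92 without those libraries) and the beta genes (r = 0.96, rho = 0.96, and 0.93 without them) at the same p. Male saline 6 and female saline 5 were the highest libraries of their groups for each of the 5 genes.

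In cisplatin libraries the chains also varied together. The alpha and beta sums had r = 0.94 over 11 libraries (permutation p = 0.00019, adjusted 0.000997) and rho = 0.78 (adjusted p = 0.0342), with r = 0.82 without female cisplatin 3 and male cisplatin 5. Alas2 against the alpha sum had r = 0.58 (permutation p = 0.0515, adjusted 0.135) and rho = 0.74 (adjusted p = 0.0535), and against the beta sum r = 0.46 (adjusted p = 0.296) and rho = 0.41 (adjusted p = 0.321). Neither passed, and Alas2 rests on at most 15 counts per library there.

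**Figure D3:**
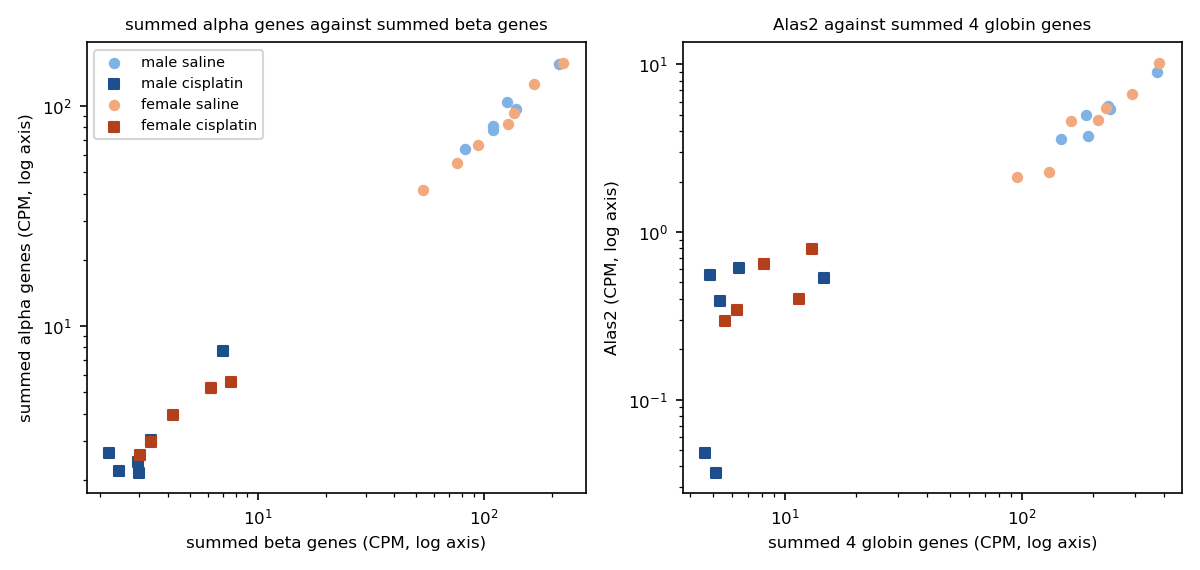
Summed alpha against summed beta genes (left) and Alas2 against the 4 hemoglobin genes (right), 1 point per library, in CPM on log axes. Saline and cisplatin libraries form separate groups, and the 2 lowest points on the right are male cisplatin 1 and 6, with 1 count of Alas2 each.

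The makeup of the remaining hemoglobin RNA was compared as ratios of counts, again as a description. Alpha counts per beta count averaged 0.729 ± 0.0456 (SD, n = 13) in saline libraries, with a range of 0.646 to 0.824. In cisplatin libraries the ratio averaged 0.899 ± 0.144 (n = 11) with a range of 0.72 to 1.2, and 8 of the 11 lay above every saline library. Over each group together, 27171 alpha and 37460 beta counts were seen in saline, against 868 and 983 in cisplatin. Alas2 counts per 100 hemoglobin counts averaged 2.36 ± 0.298 (n = 13) in saline and 5.59 ± 3.32 (n = 11) in cisplatin, where 9 libraries were above and 2 below the saline range of 1.75 to 2.86. The 2 below were those with 1 count of Alas2. Hba-a2 made up 14.7 ± 1.04% of the alpha counts in saline and 18.9 ± 5.84% in cisplatin. Hbb-bt made up 12.6 ± 1.52% and 12.2 ± 4.95% of the beta counts. In total, Hba-a2 had 3971 of 27171 alpha counts in saline and 167 of 868 in cisplatin. Hbb-bt had 4796 of 37460 beta counts and 118 of 983. Single cisplatin libraries held few counts of these copies, and whether the split moved was not tested.

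Genes of other red cell components were tested in the same fit, since the choice of members did not use them. The lists themselves were chosen with earlier results of these data known. The 4 erythroid lists (other globin genes, red cell membrane and skeleton, reticulocyte and late erythroid, erythroid regulators) had 61 genes, of which 58 were in the table and 38 were tested. In males 5 of the 38 fell and 6 rose (7.54% and 13.2% of all tested genes), with a median log2 fold change of -0.13 against 0.02 over all tested genes. In females 1 fell and 1 rose (0.0722% and 0.2% of all tested genes), with a median of -0.09 against 0.01. Without male cisplatin 5, without male cisplatin 2, or without male saline 1, 3 rather than 5 fell in males, and without male cisplatin 6 it was 9. The female counts rest on 1 gene each.

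Among membrane and skeleton genes, 3 of 12 fell in males (7.54% of all tested genes). Slc4a1, the anion exchanger band 3 of red cells that acid-secreting intercalated cells of the collecting duct also make, went from 224 ± 68.4 CPM to 82.1 ± 38.3 (log2 fold change -1.45 ± 0.33 SE, adjusted p = 0.00528, edgeR). Ank1, which encodes the ankyrin that ties band 3 to the skeleton, went from 2.03 ± 0.515 to 0.951 ± 0.332 CPM (-1.09 ± 0.30, adjusted p = 0.0144). Gypc, a glycophorin gene outside the naming rule and named after its values were seen, had -1.03 ± 0.34 (adjusted p = 0.0323). Its call stayed in 24 of 31 alternative settings, and was lost with a tubule score as covariate (mean log2 CPM of the proximal tubule and thick ascending limb lists), without 3 libraries of divergent composition (male cisplatin 5, female saline 1 and 6), and without male saline 1 or 2 or male cisplatin 2, 3 or 5. The call of Ank1 was lost with the tubule score (adjusted p = 0.0543, edgeR). In females Slc4a1, Ank1 and Gypc had -0.75, -0.89 and -0.48 and did not pass. Kel, which encodes a blood group endopeptidase, rose in both sexes (4.82 ± 0.74, adjusted p = 0.000313 in males, and 2.99 ± 0.62, adjusted p = 0.0339 in females), from means of 0.0421 and 0.111 CPM to 1.24 and 0.869. The female call was lost with the replicate block, with the tubule score, without the same 3 libraries, and without any 1 of 8 female libraries.

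Of 15 tested reticulocyte and late erythroid genes, 3 rose and 1 fell in males (13.2% and 7.54% of all tested genes). Isg20, an exonuclease gene induced by interferon (log2 fold change 1.79 ± 0.40 SE, adjusted p = 0.00482), Tspan33, a tetraspanin gene (0.84 ± 0.15, adjusted p = 0.000985), and Mkrn1, outside the rule and named after its values were seen (0.26 ± 0.08, adjusted p = 0.0222), rose in males (edgeR). The call of Mkrn1 was lost with no filter, with the tubule score and without the 3 libraries of divergent composition. Leaving out male saline 3 or male cisplatin 5 also lost it. Bpgm, which makes the red cell metabolite 2,3-bisphosphoglycerate, had log2 fold changes of 0.10 and -0.27, and the mitochondrial iron importer Slc25a37 0.05 and 0.04, in males and females.

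The regulators gave 1 gene in each direction among 8 tested in males, where 7.54% of all tested genes fell and 13.2% rose. Tfrc, the transferrin receptor that brings iron into cells, fell (-0.78 ± 0.28, adjusted p = 0.0489, edgeR), a call that stayed in 9 of 31 alternative settings. Ldb1, a cofactor of GATA1 complexes, rose by 0.28 ± 0.09 (adjusted p = 0.0238, edgeR). Its call was lost with no TMM scaling, with no filter, with the tubule score and without male saline 3. Klf1, the erythroid activator of the beta genes, stood at 0.556 ± 0.207 CPM in male saline and 0.668 ± 0.488 in male cisplatin, and at 0.77 ± 0.342 and 0.582 ± 0.203 in females, and did not pass (adjusted p = 0.673 and 0.698). Of the other globin genes, 3 of 9 were tested, and Mb, the myoglobin gene, rose in males (2.90 ± 0.71, adjusted p = 0.00789).

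Several red cell genes were too low to test, and are given as counts summed over the 13 saline and the 11 cisplatin libraries. Epb42, of the membrane skeleton, had 56 and 8 counts, and Tmod1, which caps its short actin filaments, 63 and 19. The erythroid regulator Gata1 had 27 and 22 counts. The embryonic genes Hba-x and Hbb-bh2 had 0 counts in all libraries, Hbb-y 1 and 0, and Hbb-bh1 1 and 3.

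Heme synthesis has further steps that all cells share. Of 13 tested genes of the pathway other than Alas2, 3 rose and 0 fell in males (13.2% and 7.54% of all tested genes). They included Alad (log2 fold change 0.94 ± 0.23 SE, adjusted p = 0.00899, edgeR), whose enzyme follows ALAS, and Tmem14c (0.34 ± 0.10, adjusted p = 0.0152), which encodes a mitochondrial membrane protein needed for late steps. The call of Tmem14c was lost with no filter and with the tubule score. In females 0 of 13 passed, 1 had an unadjusted p under 0.05, and DESeq2 called 0. Alas1 had 62.7 ± 12.3 CPM in male saline against 65.1 ± 11.6 in male cisplatin, and 57.7 ± 10.3 against 63.5 ± 7.76 in females, and did not pass (adjusted p = 0.804 and 0.663).

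Among 14 genes that clear heme and hemoglobin, 2 rose and 2 fell in males (13.2% and 7.54% of all tested genes). The biliverdin reductase gene Blvrb (0.98 ± 0.21, adjusted p = 0.00357) and the heme exporter gene Flvcr1 (0.78 ± 0.25, adjusted p = 0.0301) rose, and Flvcr2 fell (-0.79 ± 0.21, adjusted p = 0.0127, edgeR). The call of Flvcr1 stayed in 23 of 31 alternative settings, and was lost with the replicate block (adjusted p = 0.0654), with the tubule score (adjusted p = 0.152), and without male saline 1, 3 or 5 or male cisplatin 1, 2 or 3. That of Flvcr2 was lost with the tubule score (adjusted p = 0.0577, edgeR). Lrp1, a receptor for hemopexin-bound heme, outside the rule and named after its values were seen, fell too (-0.75 ± 0.23, adjusted p = 0.0243), a call lost without male cisplatin 2 or 3. Hmox1, which encodes the heme oxygenase that breaks heme down, had 7.03 ± 1.6 and 16.3 ± 14.1 CPM in saline and cisplatin males and did not pass (adjusted p = 0.0505). In females 0 of 14 passed, 3 had an unadjusted p under 0.05, and DESeq2 called 0. The gene for the hormone erythropoietin was too low to test, and of 7 tested genes of oxygen sensing Egln2, which encodes a prolyl hydroxylase, alone passed, in males (0.43 ± 0.09, adjusted p = 0.00369).

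**Figure D4:**
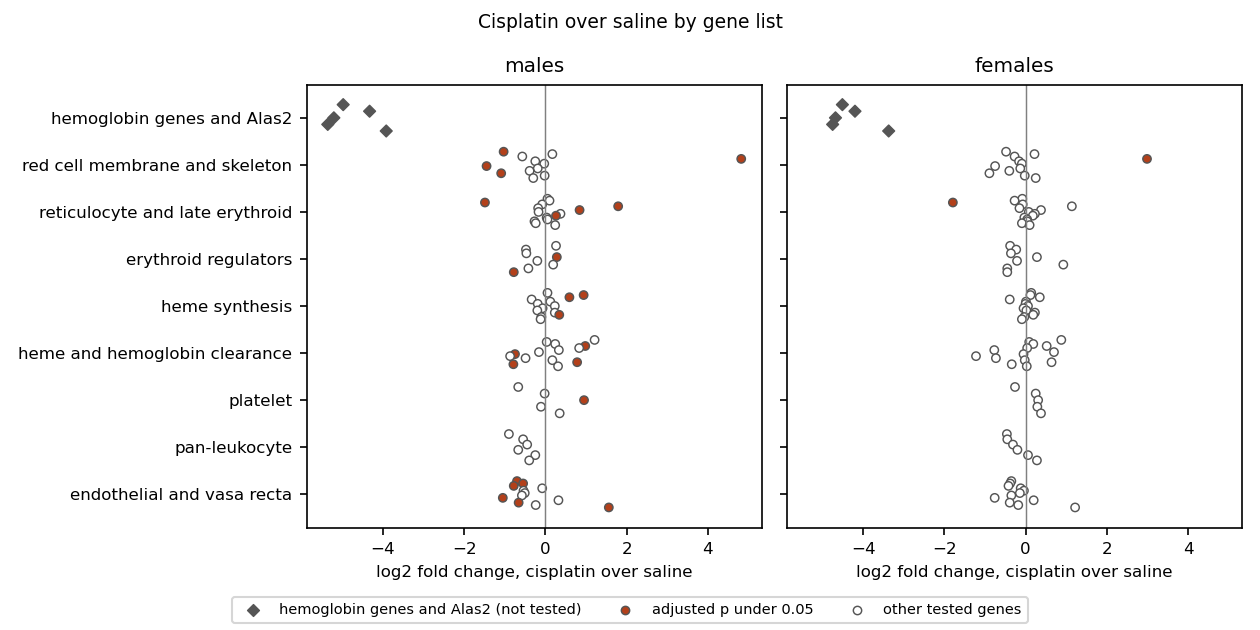
Log2 fold change of cisplatin over saline (x axis) for each tested gene of the lists named on the y axis, in males (left) and females (right). Filled circles mark an adjusted p under 0.05 by edgeR. Diamonds mark the hemoglobin genes and Alas2, for which no test is given since this contrast chose them (not tested in the legend). Other lists are not shown. The 5 diamonds lie between -5.36 and -3.37, to the left of every circle.

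Markers of other blood and vessel cells are given for comparison. Of 6 tested pan-leukocyte genes, 0 passed in either sex (edgeR, and DESeq2 called 0), with 1 in males and 0 in females at an unadjusted p under 0.05, and medians of -0.50 and -0.26. Their summed level spanned 31 to 77.3 CPM and 29 to 59.2 CPM in saline and cisplatin males, and 20.3 to 82 CPM and 26.8 to 77.5 CPM in females. All 11 neutrophil markers were too low to test, with a sum of at most 2.33 CPM in any library. Of 5 lymphocyte genes 0 passed with edgeR in either sex, with 1 at an unadjusted p under 0.05 and 1 called by DESeq2 in each. Of 5 platelet genes Itga2b rose in males (0.95 ± 0.22, adjusted p = 0.00618, edgeR), from 44.3 ± 4.66 to 85.5 ± 32.6 CPM. The platelet chemokine genes Pf4 (log2 fold change -0.02 in males and 0.25 in females) and Ppbp (-0.67 and -0.26) did not pass. They stood far lower, at 0.703 ± 0.257 and 0.554 ± 0.183 CPM in male saline. Which cells held the Itga2b RNA was not tested. The part of blood content in the hemoglobin values was not tested.

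Of 12 tested endothelial and vasa recta genes, 5 fell and 1 rose in males (7.54% and 13.2% of all tested genes), with a median log2 fold change of -0.55 against 0.02 over all tested genes. Those that fell were Emcn (-1.05 ± 0.33, adjusted p = 0.0259, edgeR), Tek (-0.78 ± 0.21, adjusted p = 0.0125) and, outside the rule and named after their values were seen, Pecam1, Eng and Cdh5 (-0.70, -0.66 and -0.55). The call of Cdh5 stayed in 16 of 31 alternative settings and was lost without any 1 of 10 male libraries or female saline 3. It was also lost with no TMM scaling, with no filter, with the tubule score and without the 3 libraries of divergent composition. That of Pecam1 stayed in 24. It was lost with the tubule score, without those 3 libraries, and without male saline 1 or 2 or male cisplatin 2, 3 or 5. The call of Emcn was lost without male saline 2 or male cisplatin 2, and that of Tek with the tubule score. Cldn5 rose (1.56 ± 0.38, adjusted p = 0.00751). The summed level of the list was 2708 to 3157 CPM and 1064 to 3216 CPM in saline and cisplatin males, and 2451 to 3496 CPM and 1943 to 2939 CPM in females, so that the treatments overlapped. In females 0 of 12 passed with edgeR, 2 had an unadjusted p under 0.05, and DESeq2 called 0. The part of vessel content in the hemoglobin values was not tested.

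Within a treatment, the hemoglobin sum was set against scores (mean log2 CPM) of these lists, with sex removed. Over the 13 saline libraries r was 0.20 with the endothelial score, 0.05 with the pan-leukocyte score, -0.57 with the platelet score (permutation p = 0.0424, adjusted 0.127) and 0.04 with a tubule score of the proximal tubule and thick ascending limb lists. Spearman's rho was 0.05, 0.15, -0.64 and 0.18, with adjusted p of 0.924, 0.736, 0.0714 and 0.7. Over the 11 cisplatin libraries r was 0.37, 0.43, 0.25 and 0.47 in the same order, and rho 0.42, 0.49, 0.29 and 0.50. None of these 8 relations passed after adjustment.

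The genes whose level was most like the mean log2 CPM of the 5 members were found by Pearson's r over the 24 libraries, as a description. With the mean of each group removed, the 10 most alike included the predicted genes Gm37780 (r = 0.72) and Gm17082 (0.71), Asb8 (0.70) and, as the tenth, Nova1 (0.64). With the libraries as they stand they included Slc24a3 (0.86), Dpyd (0.85), Cenpn (0.85) and Cacna2d1 (0.84). That second measure holds the difference between treatments.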

How the data were processed

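Poly(A) RNA of 24 inner medulla libraries was analysed from the counts per gene that the authors deposited as whole numbers, with no normalization. Per the submitters' processing notes, the tools included Trim Galore 0.6.7, Subread 2.0.1, featureCounts and DESeq2 1.28.1, with the build mm10. No source used here gives the aligner, annotation release, strand setting or the handling of reads that match several places. Symbols were found for 52083 of 55416 identifiers, and groups follow the labels. Libraries of a group all differed beyond sampling noise (chi-square per gene at least 7.72 over 61 pairs).

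Genes were kept by filterByExpr (minimum count 10) and tested in R 4.3.3 with edgeR 4.0.16, by a quasi-likelihood fit with a mean per group, TMM scaling and Benjamini-Hochberg adjustment over 18005 genes (threshold 0.05). The script was tested on simulated data. Intervals are 1.96 SE to each side. Correlations used log2 CPM with 0.5 added and 100000 permutations, exact for up to 7 libraries. Lcn2 saline relations were added after the values were seen. The alternatives were other scalings, DESeq2 1.42.0, no filter, a replicate block, a tubule score, and leaving out libraries.

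The 5 members, the gene lists and the tests were chosen with earlier results of these data known. The genes named from each list are the up to 3 with the largest mean log2 fold change of both sexes, in absolute value, among those called in at least 1 sex. Promoter windows are from RefSeq (GRCm38.p6), which matched 5 of 5 members, and coding sequences are the longest open reading frames of GENCODE transcripts. Values of some listed genes are not reported here.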

Additional observations from a re-analysis of the deposited data

Results flagged for a closer look

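A library that stood apart from the rest of its group, by Dixon's test of the gap at either end, was found in 6 of 24 groups of values, where chance gives about 1 in 20. Of these, 5 are 1 library, male cisplatin 5, which was the highest of its group for Hba-a1 (6.04 CPM), Hba-a2 (1.71 CPM), Hbb-bs (5.93 CPM), Hbb-bt (1.07 CPM) and the sum of the 4 hemoglobin genes (14.7 CPM). These values come from the same library and are not separate. Alas2 was 0.534 CPM in that library, within its group, and the library was among 3 known from earlier results to be of divergent composition. The other is Hbb-bt in female saline 5 (37.2 CPM), which was also the highest female saline library for the other 4 genes.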

How the results depend on the processing

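Over 310 alternative values the cisplatin over saline log2 fold changes of the 5 genes ran from -5.91 to -3.12, and 0 changed sign. That of Hbb-bt in males was -5.90 without male cisplatin 5, female saline 1 and female saline 6, and -5.91 to -5.12 leaving out 1 library. The sex and interaction contrasts gave 0 calls in 93 alternative fits (smallest adjusted p 0.446), and their small values changed sign. With the tubule score, the saline sex difference was 0.04 for Hba-a2, 0.01 for Hbb-bs and 0.04 for Alas2. Leaving out 1 library it was -0.32 to 0.06 for Hba-a1, -0.27 to 0.14 for Hba-a2, -0.26 to 0.12 for Hbb-bs, -0.20 to 0.34 for Hbb-bt and -0.33 to 0.13 for Alas2, and for Hba-a2 the cisplatin sex difference was -0.13 to 0.55 and the interaction -0.08 to 0.60. Erythroid list genes called lower in males were 2 with the tubule score, 3 without the 3 libraries, and 3 to 9 leaving out 1. In females 0 were called higher with the tubule score or without the 3 libraries, and leaving out 1 library gave 0 to 1 lower and 0 to 1 higher. Lcn2 against hemoglobin had r = -0.65 without male cisplatin 5 (permutation p = 0.044), and -0.65 to -0.23 leaving out 1 library. Lcn2 against Alas2 had r = -0.07 with sex not removed, and -0.36 to 0.26 leaving out 1. The cause of these changes was not tested. Of 1018 alternative values of single list genes, 102 lost their call. Depth limits Alas2 after cisplatin most.

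Replicate numbers did not pair libraries: same-numbered libraries had median correlations of -0.068, -0.092, 0.021 and -0.077 over the 4 pairs of groups. With the replicate block, 0 erythroid list genes were called lower and 0 higher in females, and the saline sex difference of Hbb-bt was -0.08.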

Other observations

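Saline libraries also differed in Lcn2, and these relations were computed after the values had been seen. Over the 7 female saline libraries Lcn2 (49.4 to 129 CPM) and the summed hemoglobin genes had r = 0.92 (exact permutation p = 0.00496, adjusted 0.0208) and rho = 0.86 (exact p = 0.0238, adjusted 0.0714), and r was 0.77 without female saline 1 and 5. Over the 6 male saline libraries, where Lcn2 spanned 57.8 to 67.3 CPM, r was -0.71 (exact permutation p = 0.121, adjusted 0.282) and rho -0.37 (exact p = 0.497), and r was 0.14 without male saline 2 and 6. Over all 13, with sex removed, r was 0.71 (permutation p = 0.00701, adjusted 0.0245), rho was 0.47 (adjusted p = 0.246), and r was 0.51 without female saline 2 and 5. Whether the relation differs between the sexes was not tested.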
